A study of Rattus norvegicus with 8 samples.

Results

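After 3 days in 20 mM glucose, INS-1 cells had 441 of 1049 genes (42.0%) at least 2-fold higher with forskolin than with DMSO. All of these 1049 genes had been listed for a rise over 2-fold with forskolin at 2.8 mM. The share that rose at 20 mM thus describes genes already known to respond, not the whole transcriptome. Immediate early transcription factors, G protein coupled receptors and secreted peptides had some of the highest median folds among the gene lists. The medians of receptors and peptides were lower than at 2.8 mM, as was that of all genes. In the values as deposited, most listed genes of ribosomes, nucleoli and the endoplasmic reticulum (ER) lay within 1.5-fold, a count that a scaling of 1.2-fold between the libraries would change. The ribosomal and nucleolar lists were made after values were seen. A forskolin level at least 1.5-fold below DMSO was seen in 12 of the 1049 genes. Genes that did not rise with forskolin at 2.8 mM were not listed, so this count does not measure how many genes forskolin lowers.

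INS-1 is a line of rat insulinoma cells that secrete insulin and stand in for the pancreatic beta cell, and all samples are cultured tumour cells of this 1 line. Forskolin, a plant diterpene, switches on adenylyl cyclase. The cAMP formed releases the catalytic subunits of protein kinase A, which phosphorylate CREB and let its coactivators gather at cAMP response elements (CREs) near gene starts. Early products of this wave, such as Crem, Sik1 and phosphodiesterases, then damp the signal. In beta cells the same pathway carries the effect of incretin hormones on insulin secretion and on survival.

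The comparison rests on the 20 mM libraries, which hold cells given 10 uM forskolin or DMSO for 2 h at the end of 3 days in that glucose level. A matching pair came from cells in 2.8 mM glucose. A separate experiment at 11 mM glucose had cells without virus and cells with an adenovirus for A-CREB (2 days), a dominant-negative inhibitor of CREB, each with DMSO or forskolin. Every group had 1 library, so no difference has a replicate check, no test could be run and no error is given. The question was which gene classes still respond to cAMP after prolonged high glucose.

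The deposited glucose table lists 1344 genes, all because their forskolin value was over 2 times their DMSO value at 2.8 mM. Genes with a mean of its 4 libraries of at least 1 FPKM (fragments scaled by transcript length and by sequencing depth) were taken, which gave 1049 genes and left out 295. The values near this limit were 1.00 FPKM for Cetn4, 1.01 for Zpbp and 1.01 for Astn2 inside it, and 0.992 for Fbn1 and 0.985 for Pcdhga12 outside it. A fold is (forskolin + 0.1)/(DMSO + 0.1) in FPKM, which understates the change of weakly expressed genes. A gene is said to have risen when its fold at 20 mM was at least 2, to have risen weakly from 1.5 to below 2, to be flat within 1.5-fold, and to be lower at 1/1.5 or less.

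Depth had to be estimated, as total reads are not stated. Ratios of low values between the 20 mM libraries matched ratios of whole reads (1 to 5 each) for 56.8% of 199 genes (tolerance 1%), against 5.53% at the median of the scales tried. By these steps 1 read was worth 1.48 times as many FPKM in the 20 mM forskolin library as in the 20 mM DMSO library. At the median of 92 low genes 1 FPKM stood for about 21.6 reads in DMSO and 14.5 in forskolin, and this varies with gene length. A value near 0.1 FPKM is thus of few reads. Of the 10 beta cell markers looked for, Mafa and Ucn3 were listed. Of 29 markers of other cell types, the table lists Kdr of endothelium and Csf1r of macrophages, the latter at a mean of 0.053 FPKM. A marker that is not listed may be expressed at any level, since the table holds only induced genes, so the labelled cell type could not be checked further. In bulk RNA, fewer cells of a type and less RNA per cell cannot be told apart.

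Over the 1049 genes the median fold at 20 mM was 1.79 (0.84 on the log2 scale, quartiles 0.45 and 1.46). Besides the 441 genes that rose, 248 (23.6%) rose weakly, 348 (33.2%) were flat and 12 (1.14%) were lower. A fold of at least 4 was reached by 146 genes, of at least 8 by 52, of at least 16 by 21 and of at least 32 by 6. The forskolin value lay below the DMSO value in 59 genes, and in 36 of these the gap was within 1.2-fold. The share of genes that rose was similar across quartiles of mean level, at 40.3%, 40.1%, 43.5% and 44.3% from the lowest to the highest. Lower genes were unevenly placed, with 10 of 12 in the lowest quartile. Just above the 2-fold limit lay Rtn4rl1 (47.6 FPKM in DMSO and 95.4 in forskolin), Atp2a2 (245 and 491) and Lysmd3 (5.45 and 11.0), and just below it Gpd2 (80.0 and 160), Slc18a2 (1.04 and 2.17) and Aldoa (365 and 728). The 2-fold limit thus falls between genes of nearly equal fold.

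**Figure D1:**
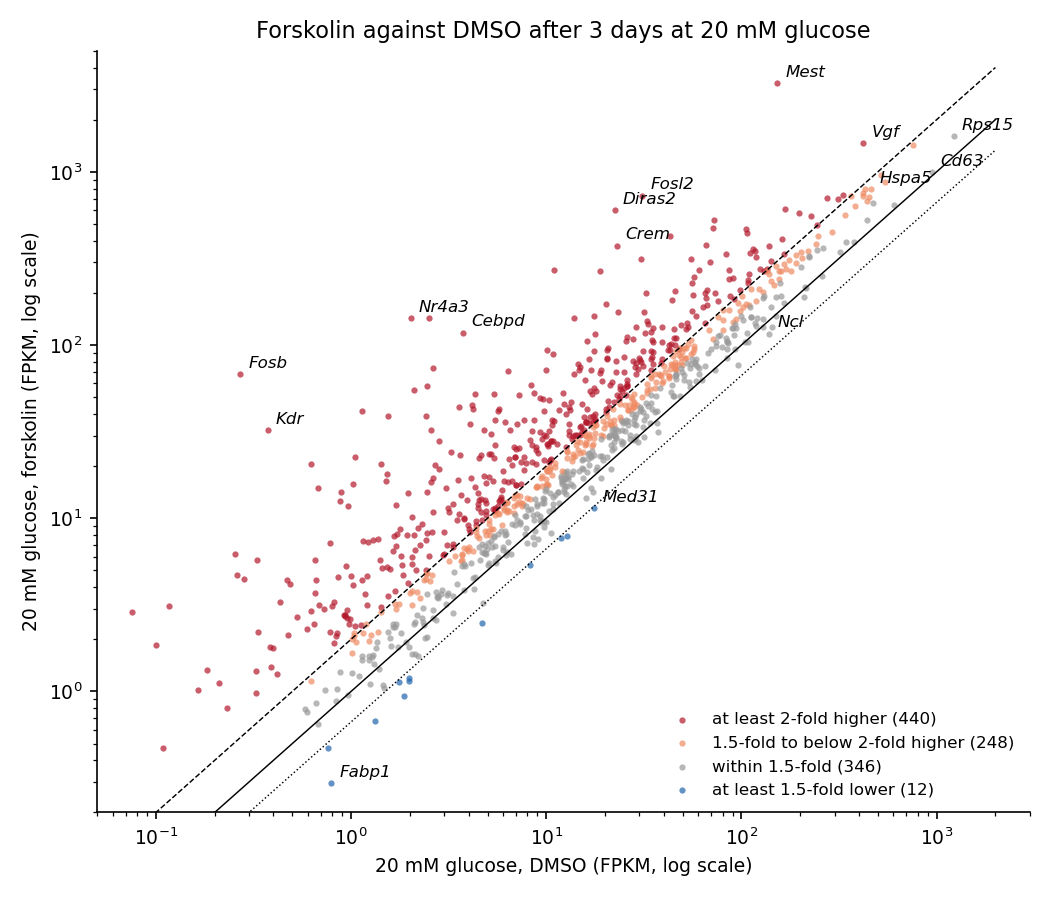
FPKM of each gene in the 20 mM forskolin library (vertical, log scale) against the 20 mM DMSO library (horizontal, log scale), 1 point a gene, coloured by class; the 3 genes listed at 0 in a 20 mM library are not drawn. Lines mark equal levels (solid), a 2-fold higher (dashed) and a 1.5-fold lower (dotted) forskolin level. The 440 drawn genes that rose span the range of levels, and the 12 lower genes lie mostly at low levels.

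CREs stood in promoters of rising and of flat genes at similar shares. Of the 1049 genes, 822 matched a promoter of 300 bases (250 before to 50 after the gene start) in a RefSeq table of assembly GRCr8. The full palindrome TGACGTCA, which reads the same on both strands, occurred in 7.66% of these promoters, against 1.83% of all 33469 promoters and 2.10% of the 21851 protein-coding ones. By class it was found in 8.24% (28 of 340) of genes that rose, 8.08% (16 of 198) of weak risers, 6.498% (18 of 277) of flat genes and 1 of 7 lower genes, the last being Med31. The shorter CRE core, TGACG or CGTCA, which also counts every full site, was found in 45.3%, 45.5% and 48.7% of rising, weakly rising and flat genes and in 23.5% of protein-coding promoters. The AP-1 motif, TGAGTCA or TGACTCA, was in 4.71%, 4.55% and 2.53% of the same classes and in 4.12% of protein-coding promoters. The E box CACGTG was in 11.8%, 12.1% and 14.8%, against 7.02%. All genes here were listed for a forskolin response at 2.8 mM, so the share over all classes describes that listing. Letters that match are not shown to be bound.

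The promoters below hold a full CRE (capitals) in the 4 risers of largest fold that have one, and in a pair of highly expressed flat genes, chosen after their values were seen. Giot1 encodes a zinc finger protein, Plk2 a stress-responsive polo-like kinase, Slc25a25 a mitochondrial ATP-Mg/phosphate carrier and Cartpt the CART peptide precursor. Txnl1 encodes a thioredoxin-like protein and Ormdl3 a regulator of sphingolipid synthesis. Coordinates are of GRCr8, sequences are from RefSeq and are written 5' to 3' along the gene's strand.
Giot1 (chr7:10886916-10887215, minus strand): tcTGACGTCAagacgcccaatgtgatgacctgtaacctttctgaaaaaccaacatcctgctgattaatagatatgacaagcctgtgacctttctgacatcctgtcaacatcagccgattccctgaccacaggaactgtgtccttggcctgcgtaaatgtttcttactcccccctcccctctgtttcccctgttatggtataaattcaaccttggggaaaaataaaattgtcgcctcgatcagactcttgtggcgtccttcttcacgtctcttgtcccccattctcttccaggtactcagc
Plk2 (chr2:43702286-43702585, plus strand): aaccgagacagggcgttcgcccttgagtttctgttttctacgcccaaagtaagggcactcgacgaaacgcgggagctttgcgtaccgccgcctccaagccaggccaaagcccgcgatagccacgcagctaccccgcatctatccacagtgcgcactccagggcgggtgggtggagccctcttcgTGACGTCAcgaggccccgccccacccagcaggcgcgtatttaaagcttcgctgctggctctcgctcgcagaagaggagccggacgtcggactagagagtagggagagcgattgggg
Slc25a25 (chr3:36116532-36116831, minus strand): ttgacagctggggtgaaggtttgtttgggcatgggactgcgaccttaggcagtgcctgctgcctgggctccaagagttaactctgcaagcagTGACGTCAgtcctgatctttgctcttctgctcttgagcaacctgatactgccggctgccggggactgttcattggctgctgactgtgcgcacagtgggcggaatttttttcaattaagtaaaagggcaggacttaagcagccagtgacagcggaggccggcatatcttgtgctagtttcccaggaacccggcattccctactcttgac
Cartpt (chr2:32991186-32991485, minus strand): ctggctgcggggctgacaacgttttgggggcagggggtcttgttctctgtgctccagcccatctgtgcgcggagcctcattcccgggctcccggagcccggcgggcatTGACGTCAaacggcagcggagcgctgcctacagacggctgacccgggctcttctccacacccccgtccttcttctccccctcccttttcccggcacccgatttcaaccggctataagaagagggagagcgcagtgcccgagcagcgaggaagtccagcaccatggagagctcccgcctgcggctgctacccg
Txnl1 (chr18:59425342-59425641, minus strand): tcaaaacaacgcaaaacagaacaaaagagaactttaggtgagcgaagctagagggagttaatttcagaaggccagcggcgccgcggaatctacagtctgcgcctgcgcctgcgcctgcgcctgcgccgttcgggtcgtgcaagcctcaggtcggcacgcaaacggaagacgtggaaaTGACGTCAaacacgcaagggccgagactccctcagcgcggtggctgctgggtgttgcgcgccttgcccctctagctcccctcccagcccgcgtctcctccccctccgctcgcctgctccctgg
Ormdl3 (chr10:84092251-84092550, minus strand): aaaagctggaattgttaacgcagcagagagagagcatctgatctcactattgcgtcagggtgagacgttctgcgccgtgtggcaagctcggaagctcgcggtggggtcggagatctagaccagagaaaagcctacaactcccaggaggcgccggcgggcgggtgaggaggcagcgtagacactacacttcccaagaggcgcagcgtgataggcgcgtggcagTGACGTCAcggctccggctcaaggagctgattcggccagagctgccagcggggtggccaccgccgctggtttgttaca
The CRE began 248 bases before the gene start in Giot1, 66 in Plk2, 158 in Slc25a25, 142 in Cartpt, 73 in Txnl1 and 28 in Ormdl3. Giot1 was at 0.882 FPKM in DMSO and 14.2 in forskolin at 20 mM (14.6-fold), and Cartpt at 4.08 and 35.0 (8.40-fold). Txnl1 was at 157 and 228 FPKM (1.45-fold), and Ormdl3 at 119 and 129 FPKM (1.08-fold). The same letters thus stood at a similar distance in Plk2, which had a fold of 11.8, and in Txnl1.

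The largest folds belonged to genes almost silent without forskolin as well as to abundant ones. Kdr, which encodes VEGF receptor 2, was at 0.373 FPKM with DMSO and 32.3 with forskolin (68.4-fold), and Pdzrn3, a ubiquitin ligase with PDZ domains, at 0.621 and 20.5 (28.6-fold). These DMSO values are of few reads, so the folds move with the pseudocount. The small GTPase gene Diras2 went from 22.4 to 599 FPKM (26.6-fold). Mest, an imprinted gene of the alpha/beta hydrolase family, went from 153 to 3255 FPKM (21.3-fold) and reached the highest forskolin level of all 1049 genes. At 2.8 mM the forskolin level of Mest was 2749 FPKM, below that at 20 mM, and its DMSO level there was 30.6 FPKM. After Mest, the highest forskolin levels at 20 mM were those of Rps15, Vgf, Ckb, Cd63, Mid1ip1, Atp5d, Maged1, Hspa5 and Tpm4. Of these, Vgf rose, and the others were flat or rose weakly.

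Transcription factors of the first wave had the highest list medians. Of 7 AP-1 subunits 6 rose, with a median fold of 19.2, against 1.79 for all genes. Fosl1 went from 0.680 to 14.9 FPKM (19.2-fold), Junb from 31.7 to 156 (4.90-fold) and Jund from 69.3 to 303 (4.36-fold). Jun was flat, at 6.23 FPKM in DMSO and 8.15 in forskolin (1.30-fold), so the Fos and Jun partners of AP-1 were unequally induced. All 8 genes of the Egr, Klf and immediate early list rose (median 6.90-fold). This list also holds Zfp36 and Ier3, which are not transcription factors. Among the 8 were Klf4, from 2.11 to 55.3 FPKM (25.0-fold), and Csrnp1, from 3.58 to 43.8 (11.9-fold). Of the nuclear receptors, 6 of 7 rose (median 6.45-fold). Beside the NR4A genes these were Nr2f2, an orphan receptor of the COUP family (17.8 to 115 FPKM), Rxra, the partner of many nuclear receptors (35.4 to 125), and Rorb (2.44 to 8.20).

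Of 14 bZIP factors of the CREB, C/EBP and Maf families 10 rose, 3 rose weakly and Ddit3 was flat (median 4.45-fold). Cebpd went from 3.73 to 118 FPKM (30.8-fold) and Cebpb, its close relative, from 4.80 to 32.5 (6.65-fold). Crem, the source of the repressor ICER, was at 23.0 and 375 FPKM (16.3-fold). Atf4, the stress-response factor whose protein is set largely by translation, rose weakly from 138 to 257 FPKM (1.86-fold). Ddit3, which acts downstream of Atf4, was at 32.5 and 46.5 FPKM. Among bHLH and Id genes 4 of 9 rose, near the 42.0% of all genes, 2 rose weakly and 3 were flat. The Id proteins, inhibitors of bHLH factors, ranged from a rise of Id4 (17.5 to 147 FPKM, 8.36-fold) and Id1 (196 to 576, 2.93-fold) through a weak rise of Id3 (135 to 266) to Id2, whose forskolin level lay below DMSO (10.6 and 8.22). Of 4 genes of the homeobox and forkhead list, which also takes in the zinc finger gene Prdm1, 3 rose. Prdm1 rose 2.61-fold, but with a pseudocount of 1 its log2 fold was 0.85, below the 2-fold limit. The homeobox genes Dlx2, Prox1 and Barhl1 are not in the list and rose as well. Foxa1, a pioneer factor of endoderm, was at 3.27 and 23.9 FPKM (7.14-fold). Its relative Foxa2 rose weakly, from 86.3 to 159 FPKM.

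**Figure D2:**
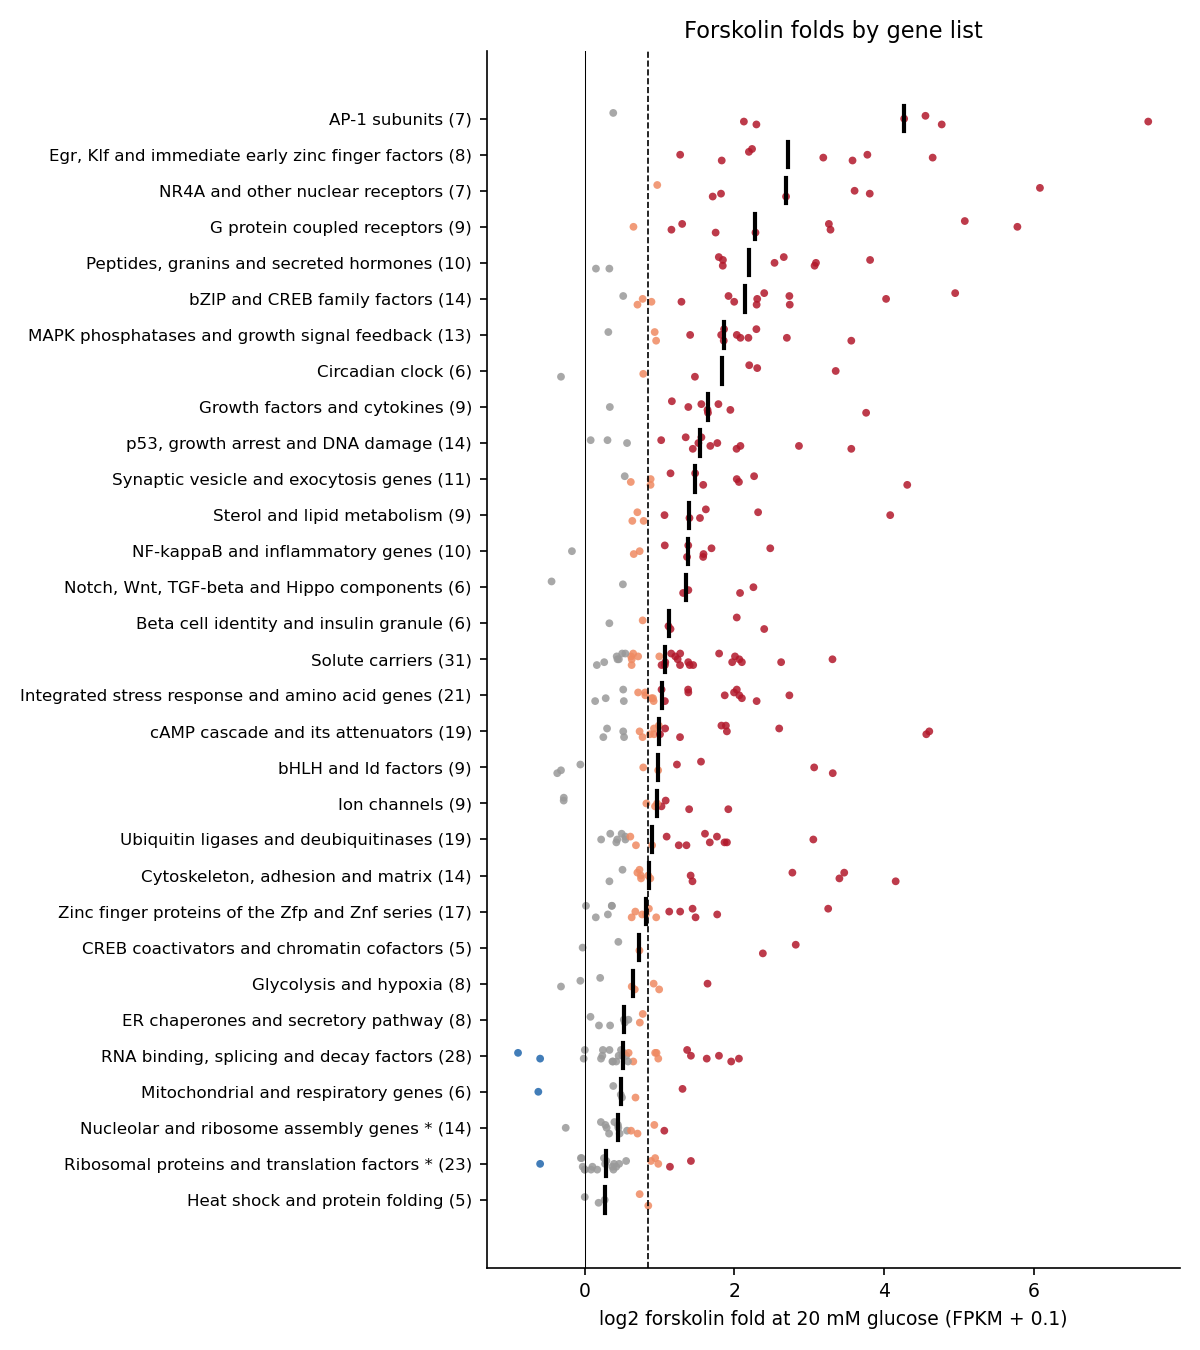
Log2 forskolin fold at 20 mM (horizontal, FPKM + 0.1) of each gene, by gene list with at least 5 members, sorted by median; the number of genes drawn is in brackets. Colours give the class (dark red rose, orange rose weakly, grey flat, blue lower), black bars the median of a list, the dashed line the median of all genes, and a star a list made after values were seen. AP-1 subunits sit at the top with a median of 4.27, and heat shock genes at the bottom with 0.27.

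Of 19 genes that make or end the cAMP signal 9 rose, 6 rose weakly and 4 were flat. Their median fold was 1.99, against 1.79 and 42.0% rising over all genes, so the list was near the background. The kinase gene Sik1, which restrains CREB coactivators, was the largest, from 11.0 to 269 FPKM (24.3-fold). Rgs2 (1.55 to 38.8 FPKM) limits G protein signals, and Gem (8.65 to 52.8) and Rem2 (22.7 to 80.9) are small GTPases that restrain calcium channels. All 3 rose. Of the phosphodiesterases, which break down cyclic nucleotides, Pde4a, Pde4d, Pde1c and Pde8a rose, while Pde10a (46.2 and 91.8 FPKM), Pde3b (23.9 and 45.5) and Pde4b (5.47 and 10.5) rose weakly and Pde7b (5.84 and 8.45) was flat. Prkar1a, the regulatory subunit that holds protein kinase A inactive, rose weakly from 339 to 564 FPKM. The anchoring protein gene Akap12 (11.9 and 17.0 FPKM), the Ras-like gene Rasd1 (11.5 and 14.2) and the cyclase gene Adcy5 (0.848 and 1.03) were flat. At 2.8 mM Akap12 had reached 338 FPKM and Rasd1 257 FPKM in forskolin, so 2 strong responders there had little response here.

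Feedback genes of growth factor signalling had larger folds. Of 13 MAPK phosphatase and growth feedback genes 10 rose, 2 rose weakly and Socs2, an inhibitor of cytokine receptors, was flat (28.2 and 35.1 FPKM), with a median fold of 3.63. Dusp4, a nuclear phosphatase of MAP kinases, went from 16.1 to 105 FPKM (6.49-fold, against 5.94-fold at 2.8 mM). Errfi1, an inhibitor of the EGF receptor, went from 13.8 to 68.2 (4.90-fold). Dusp8 and the pseudokinase gene Trib1 rose weakly, to 146 and 107 FPKM. In insulin signalling, the adaptor Irs2 went from 55.4 to 313 FPKM (5.65-fold), and Igf1r from 28.8 to 127. Among clock genes, 4 of 6 rose. Cry2, a repressor of the clock, went from 30.7 to 314 FPKM (10.2-fold), and Bhlhe40, another repressor, was flat at 95.7 and 76.9 FPKM.

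Secreted peptides and receptors mostly rose. Of 11 peptide and hormone genes 8 rose and 3 were flat, with a median fold of 3.59. Their median log2 fold was 1.85 at 20 mM and 3.08 at 2.8 mM. Stc1, which encodes stanniocalcin 1, went from 20.2 to 172 FPKM (8.50-fold), Cck, the cholecystokinin precursor, from 65.6 to 380 (5.79-fold), and the granin Vgf from 421 to 1457 (3.46-fold). The flat genes were Pcsk1, the prohormone convertase 1/3 (7.35 and 9.26 FPKM), Calca (1.09 and 1.22) and Ucn3, listed at 0 in both 20 mM libraries and thus counted as flat through the pseudocount. Of 9 growth factor and cytokine genes 8 rose, such as Vegfa (86.8 to 271 FPKM, 3.12-fold), Wnt4 (31.3 to 92.3) and Tgfb2 (0.330 to 5.72). Of 9 G protein coupled receptors 8 rose, with a median fold of 4.86. Their median log2 fold was 2.28 at 20 mM and 5.20 at 2.8 mM, against 0.84 and 1.56 for all genes. Rxfp3, the relaxin-3 receptor, went from 2.52 to 143 FPKM (54.8-fold), and Gprc5a, an orphan receptor, from 1.13 to 41.5 (33.7-fold). Adra2a, the receptor through which adrenaline lowers cAMP in beta cells, went from 13.1 to 44.1 FPKM (3.36-fold), and Sstr1, a somatostatin receptor, from 2.82 to 27.9 (9.58-fold). Both couple to the inhibitory G protein.

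Of 7 beta cell and insulin granule genes 4 rose, against 42.0% of all genes. Among the 4 were the calcium sensors Syt7 (333 to 737 FPKM, 2.21-fold) and Syt4 (25.6 to 105) and the homeobox gene Nkx2-2 (43.0 to 93.4). With the forskolin values divided by 1.2, 2 of the 7 rose, and with them multiplied by 1.2, 5 rose. Mafa, an activator of the insulin gene, had a fold of 5.27 from a DMSO level of 14.6 FPKM, and its forskolin level of 77.3 FPKM was below the DMSO level at 2.8 mM, 149 FPKM. Its fold was 4.27 at 2.8 mM, so Mafa had a like fold at a lower level. Ptprn, a granule protein, rose weakly from 202 to 346 FPKM. In the synaptic and exocytosis list 7 of 11 rose, led by the vesicle protein gene Sv2c (1.04 to 22.5 FPKM, 19.8-fold), and Syp, the vesicle marker synaptophysin, rose weakly from 292 to 448. Of 9 ion channels 4 rose, near the 42.0% of all genes, 3 rose weakly and 2 were flat. Kcna2, a voltage-gated potassium channel, was among the flat ones (8.67 and 7.12 FPKM).

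Transport and lipid genes rose near the average or above it. Of 31 genes taken by the solute carrier name prefix, which include the scaffold gene Slc9a3r1, 18 rose, 6 rose weakly and 7 were flat (median 2.11-fold). Slc25a25 went from 43.2 to 429 FPKM (9.91-fold), and the amino acid transporter Slc7a5 from 106 to 445 (4.18-fold), with its partner chain Slc3a2 at 164 and 335. The glucose transporter Slc2a1 rose weakly (22.3 and 34.6), and the lactate carrier Slc16a1, normally kept low in beta cells, was flat, with 16.5 FPKM in forskolin. Of 9 sterol and lipid genes 6 rose and 3 rose weakly. Stard4, a cholesterol carrier, went from 14.8 to 74.2 FPKM (4.98-fold, against 4.97-fold at 2.8 mM), Insig1, a brake on sterol synthesis, from 10.3 to 31.8, and Sphk1, a sphingosine kinase, from 0.0752 to 2.86. Of 8 genes of the glycolysis and hypoxia list only Vegfa rose, and 3 rose with the forskolin values multiplied by 1.2. Ldhb (60.3 to 271 FPKM) and Epas1 (11.3 to 26.8) are not in this list and rose. Within the list, Aldoa (365 and 728 FPKM), Pgam1 (451 and 716), Ddit4 and Slc2a1 rose weakly, and Pfkfb3, Mxi1 and Bhlhe40 were flat.

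Stress genes differed by list. Of 21 integrated stress response and amino acid genes 11 rose, 6 rose weakly and 4 were flat. Their median fold was 2.04, against 1.79 and 42.0% rising over all genes, so the list was near the background. With the forskolin values divided by 1.2, 9 rose, and with them multiplied by 1.2, 16 rose. Ppp1r15a, which ends the block on translation, went from 31.9 to 117 FPKM (3.65-fold), and Trib3 from 4.12 to 17.1 (4.09-fold). None of 8 ER chaperone and secretory genes rose. Their median log2 fold was 0.53 at 20 mM and 1.12 at 2.8 mM, below the 0.84 and 1.56 of all genes. Hspa5 (463 and 792 FPKM) and Dnajb9 (3.93 and 6.61) rose weakly, and Hsp90b1 (375 and 396), Sec61a1 (223 and 323), Canx (118 and 134), Hyou1 (59.4 and 75.2), Herpud1 (45.9 and 66.0) and Tmed7 (48.9 and 73.4) were flat. Nor did any of 5 heat shock genes rise, with Hspd1, the mitochondrial chaperonin, at 63.0 FPKM in both libraries. The median log2 fold of the heat shock list was 1.17 at 2.8 mM. Growth arrest genes did rise, 11 of 14, with a median fold of 2.90. Cdkn1b, a cyclin kinase inhibitor, went from 55.7 to 227 FPKM (4.08-fold), and the antiproliferative gene Btg1 from 72.5 to 527 (7.26-fold). Ccnd1, which encodes cyclin D1 and drives the G1 phase, rose as well, from 2.46 to 57.6 FPKM. Of 10 NF-kappaB and inflammatory genes 7 rose, among them 3 genes of the IkB family, Nfkbia (30.6 to 79.9), Nfkbie (9.54 to 28.8) and Nfkbiz (2.13 to 6.59).

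In genes of RNA processing and protein synthesis the classes depended on the scaling. Of 28 RNA binding, splicing and decay genes 6 rose, 5 rose weakly, 15 were flat and 2 were lower (median 1.43-fold). With the forskolin values multiplied by 1.2, 9 rose, 12 rose weakly, 6 were flat and 1 was lower. Those that rose include Cpeb4, a regulator of polyadenylation (32.9 to 138 FPKM), and the RNA-decay and antiviral factors Zc3hav1 (34.2 to 119) and Zc3h12a (1.40 to 5.73). The splicing factor Srsf2 rose (274 to 706), while Srsf3, Srsf5 and Srsf7 were flat. Lists of ribosomal and nucleolar genes were made after values were seen. Of 23 ribosomal protein and translation genes, a prefix list that also takes in the Argonaute genes Eif2c2 and Eif2c3, 17 were flat, 3 rose weakly, 2 rose and 1 was lower (median 1.22-fold). Rps15 was at 1221 and 1602 FPKM, Rpl19 at 438 and 530, and Eef1a1, an elongation factor, at 166 and 176. Of 14 nucleolar genes 10 were flat, 3 rose weakly and 1 rose. With the same multiplication 12 of the 23 and 4 of the 14 were flat. Npm1 was at 150 and 188 FPKM, and Ncl, nucleolin, at 139 and 116. Ribosomal genes have many near-identical processed copies, and Rpl37a-ps1 is itself a pseudogene, so how the authors' counting split such reads is uncertain.

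**Figure D3:**
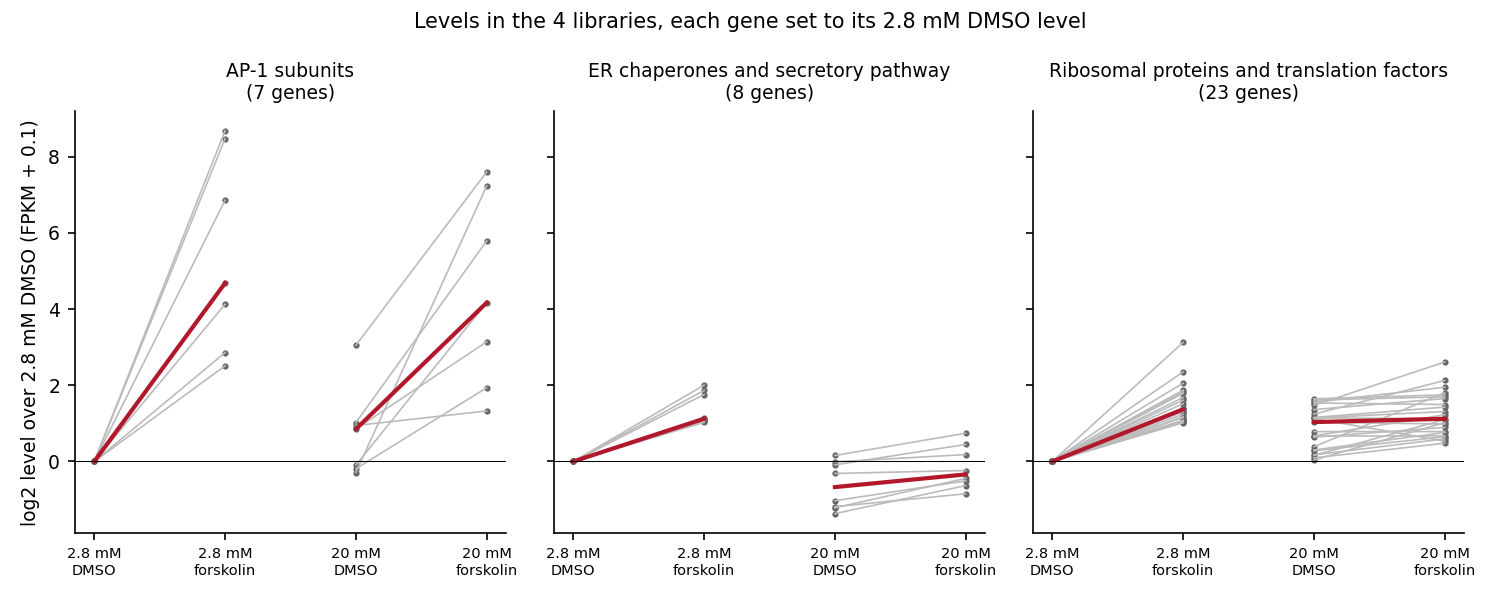
Log2 level in each of the 4 libraries over the 2.8 mM DMSO level of the same gene (vertical, FPKM + 0.1), for AP-1 subunits (7 genes), ER chaperones (8) and ribosomal and translation genes (23); grey lines join DMSO and forskolin of a gene, red lines the medians. The ribosomal list was made after values were seen. Its median is 1.03 in DMSO at 20 mM and 1.37 in forskolin at 2.8 mM. The ER genes lie near or below their starting level in DMSO at 20 mM.

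Flat genes differed in how their levels at 20 mM compared with 2.8 mM. Of the 348, 108 (31.0%) had a DMSO level at 20 mM at least 1.5-fold above that at 2.8 mM and a forskolin level not lowered by as much, and in 47 of them DMSO at 20 mM was at or above forskolin at 2.8 mM. Of the flat genes in their lists, 12 of 17 ribosomal and translation genes and 6 of 10 nucleolar genes were of this kind. Rpl11 was at 88.6 FPKM in DMSO and 185 in forskolin at 2.8 mM, and at 257 and 250 at 20 mM. Ncl was at 35.9 and 94.7, then at 139 and 116. In 135 genes (38.8%) DMSO was near its 2.8 mM level and forskolin was lower, as in Hsp90b1 (466 and 971, then 375 and 396) and Cd63, a granule and lysosome membrane protein (825 and 1866, then 946 and 995). Both levels were lower in 36 (10.3%), such as Hyou1, Herpud1, Akap12 and Rasd1. Both stayed near in 52 (14.9%), such as Ywhaz, and 17 (4.89%), such as Jun, had DMSO raised and forskolin lowered. DMSO at 20 mM was at least 1.5-fold above 2.8 mM in 24.0% of genes that rose, 23.0% of weak risers and 35.9% of flat genes. The fold at 20 mM and this ratio use the same DMSO library, so a link between them is in part built in.

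**Figure D4:**
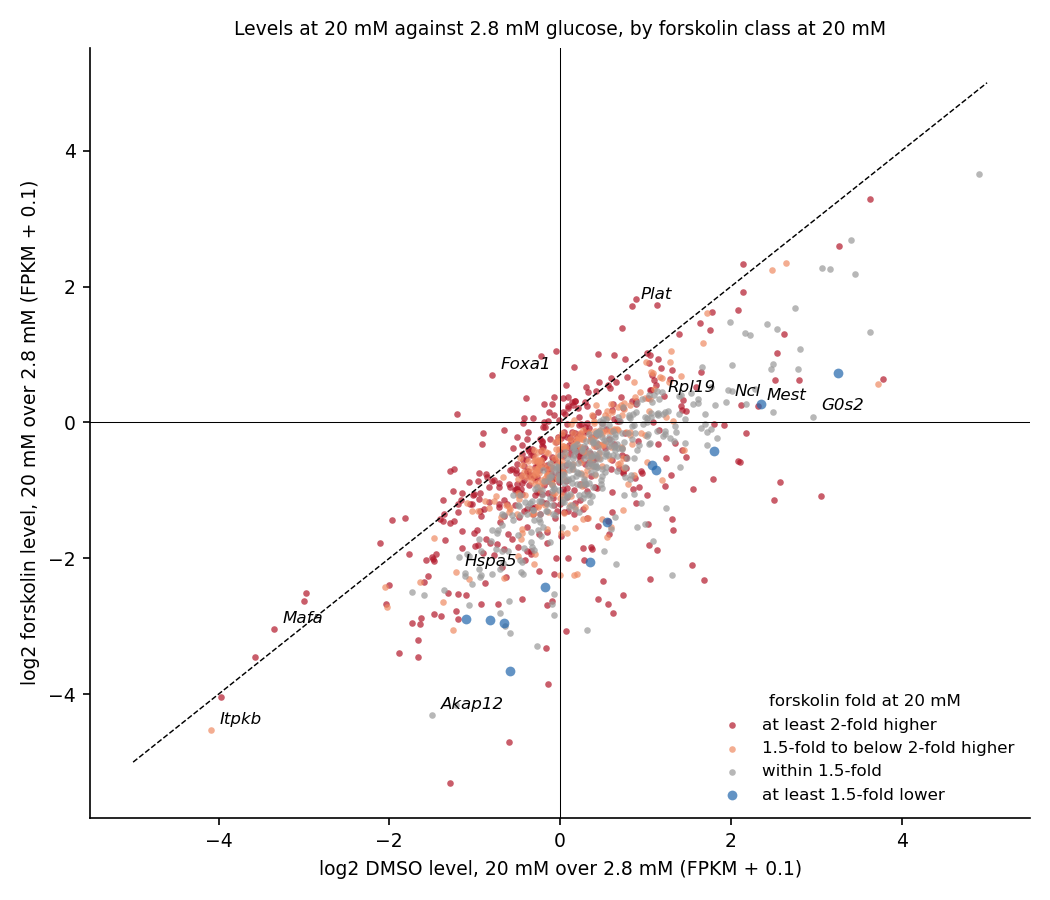
Log2 ratio of the forskolin level at 20 mM over 2.8 mM (vertical) against that of the DMSO level (horizontal), both of FPKM + 0.1, 1 point a gene, coloured by the class of the forskolin fold at 20 mM; the dashed line marks equal ratios, on which the fold is the same at both glucose levels. Flat genes lie below the line by definition, since every gene was listed for a larger rise at 2.8 mM than the flat class allows. Among these flat genes are some with DMSO raised (Ncl, Rpl19) and some with forskolin lowered (Akap12). Hspa5, a weak riser with forskolin lowered, also lies below the line, while Foxa1 and Plat lie above the line.

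A few genes had a larger fold at 20 mM than at 2.8 mM. Among the 10 with the greatest excess were Foxa1, Egr1, LOC500035, Tubb6, Plat, Pcdh9, Klf13, Ism1 and Cyth3, all of which rose. Foxa1 was at 5.76 and 14.7 FPKM at 2.8 mM (2.53-fold) and at 3.27 and 23.9 at 20 mM (7.14-fold). Its DMSO level was lower and its forskolin level higher at 20 mM. Plat, tissue plasminogen activator, was at 0.497 and 3.48 FPKM, then at 0.969 and 11.7, and the tubulin gene Tubb6 at 1.02 and 3.92, then at 1.96 and 14.01, with both levels higher. Every gene was listed for its fold at 2.8 mM, so a smaller fold at 20 mM is in part built in. Of all 1049 genes 73 (6.96%) had the larger fold at 20 mM. They include 5 of 8 genes of the Egr, Klf and immediate early list and 3 of 7 nuclear receptors. Of AP-1 subunits 0 of 7 and of cAMP cascade genes 0 of 19 are among them, near the share over all genes. Some excesses were small, such as Nr2f2 (6.45-fold against 6.02-fold at 2.8 mM) and Rxra (3.53-fold against 3.14-fold). A scaling of 1.2-fold would remove these. All these lists were chosen with results known.

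Of the 12 lower genes, 4 had a 20 mM value below 1 FPKM and 4 had both 20 mM values at 5 FPKM or more. The last are Med31, a Mediator subunit (17.7 FPKM in DMSO and 11.4 in forskolin), Nsbp1, a nucleosome binding protein (12.7 and 7.90), Cox6b1, of cytochrome c oxidase (11.9 and 7.70), and Rasgrp2, a Rap exchange factor (8.28 and 5.35). Med31 had a similar DMSO level at 2.8 mM (19.9 FPKM) and had 61.9 FPKM in forskolin there. Nsbp1 and Rasgrp2 had higher DMSO levels at 20 mM than their forskolin levels at 2.8 mM, 6.55 and 3.19 FPKM. Fabp1, a fatty acid binding protein, had the lowest fold, at 0.789 and 0.296 FPKM, values of few reads. Ddx58, the RNA sensor RIG-I, was at 4.71 and 2.49 FPKM, and Irf7, also of the interferon list, at 10.0 and 9.45. The other member of that list, Stat3, a transcription factor of cytokine signalling, rose from 45.9 to 100.4 FPKM (2.18-fold).

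Whether a gene is also induced at 11 mM glucose was read from the second experiment, whose table lists 566 genes over 2-fold with forskolin without virus. Of the 1049 genes 301 (28.7%) are listed there, or 53.2% of that table. Listed were 233 of 441 genes that rose (52.8%), 33 of 248 weak risers (13.3%), 35 of 348 flat genes (10.1%) and 0 of 12 lower genes. Among genes of like fold at 2.8 mM, the share listed was higher in risers than in flat genes in each of the 3 bins below 8-fold, but not at 8-fold or more. Below 2.5-fold there, 21.6% of risers and 5.31% of flat genes were listed, from 2.5 to below 4-fold 32.8% of risers and 5 of 100 flat genes, and from 4 to below 8-fold 52.6% of risers and 14 of 35 flat genes. At 8-fold or more, 82.5% of risers and 5 of 6 flat genes were listed. Of weak risers 8 of 106, 13 of 107, 9 of 31 and 3 of 4 were listed in these bins, and from 4 to below 8-fold their share was below that of flat genes. Across the 301 shared genes Spearman's rho of the 11 mM fold was 0.51 with the fold at 20 mM and 0.57 with that at 2.8 mM, a description over genes that are not independent and share libraries. With A-CREB, 78 of the 301 had a 2-fold response, in 69 of the 233 listed risers, 4 of 33 weak risers and 5 of 35 flat genes. The median log2 fold with A-CREB was 0.64, 0.54 and 0.26 in these classes, against 1.87, 1.34 and 1.498 without virus. These genes were listed for being over 2-fold without virus, so a lower fold in the A-CREB pair is in part built in.

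**Figure D5:**
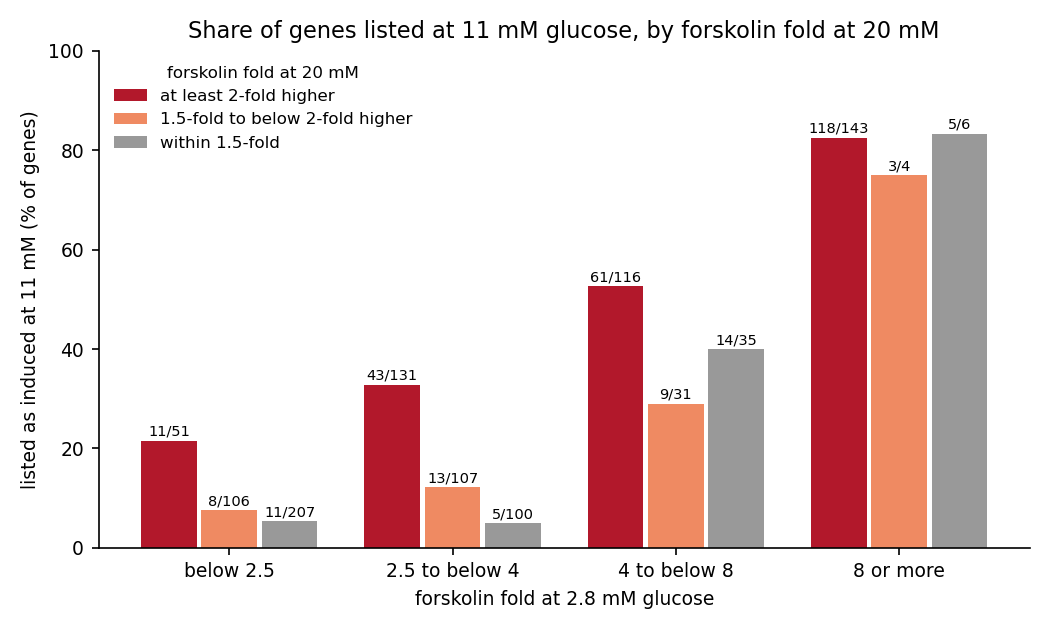
Percent of genes that the table at 11 mM glucose lists as over 2-fold with forskolin (vertical, from 0), by fold at 2.8 mM (horizontal) and by class at 20 mM (colours); numbers above bars are listed genes of all genes in the bin, and the 12 lower genes, none listed, are not drawn. Below 8-fold at 2.8 mM the share listed is higher among genes that rose at 20 mM than among flat genes in each bin, and the last bin holds 6 flat genes.

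Some genes went against this order. Among risers not listed at 11 mM, those of largest fold included Gprc5a, Fam46b, Ankrd34c, Plat, Asb4 and Foxa1. A gene that is not in that table may have had a fold below 2 or may have been left out for another reason. Among flat genes that are listed, Sertad2, a transcription cofactor, had a fold of 16.3 at 11 mM, Id2 12.8 and Rasd1 8.34. These 3 were chosen after their values were seen. Id2 thus responded at 11 mM while its forskolin level lay below DMSO at 20 mM.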

How the data were processed

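RNA of INS-1 cells was sequenced in 8 libraries, 1 a group, and each column was tied to its sample by name. Per the labels' protocols, mRNA was isolated and made into libraries with a NEBNext Ultra kit. The authors aligned reads with TopHat2 to rn5 and computed FPKM with Cuffdiff, per the submitters' processing notes. Versions, annotation, use of strand and library scaling are not given in the sources used here. A scaling that differs between the 20 mM libraries would shift every fold alike. The 2 deposited tables were treated apart, and no level was compared across them.

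From the deposited FPKM, folds, classes, counts and medians were computed with Python 3.11.15, numpy 2.4.6, pandas 2.3.3 and scipy 1.17.1, after a check on simulated data. No test was possible. Names were matched to RefSeq (GRCr8): 1223 by symbol, 86 by synonym, 22 by gene ID, and 13 not. The members, the 35 gene lists (322 genes in at least 1) and the tests were chosen with earlier results of these data known. A further 2 lists were added after values were seen. Some lists use name prefixes and some genes are in several lists. Named genes were the 15 largest and 12 lowest folds, the 10 highest forskolin levels, the 10 highest flat genes, the 10 largest excesses over 2.8 mM, up to 6 highest members a list, 3 on each side of 2-fold and known cAMP targets. Other genes named were chosen after their values were seen. A few genes picked by this rule are not reported here. No fold is printed for the 3 genes with a 0 at 20 mM, since a 0 can be a failed estimate, but they enter counts and list medians through the pseudocount (Mir343 among the risers, Fam70b and Ucn3 among flat genes). Alternatives were other pseudocounts, filters, scalings and a 3-fold threshold.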

Additional observations from a re-analysis of the deposited data

Results flagged for a closer look

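In 12 genes the forskolin level lay at least 1.5-fold below DMSO at 20 mM while it lay above DMSO at 2.8 mM, so the response had opposite signs at the glucose levels. The difference was not tested, since each group had 1 library, and every gene of the table was listed for its rise at 2.8 mM. The log2 fold at 20 mM was -1.17 for Fabp1, -0.91 for Nudt18, -0.89 for Ddx58 and -0.89 for Fggy, against 1.89, 1.38, 1.13 and 1.51 at 2.8 mM. It was -0.73 for Scml4, -0.69 for Tnnc1, -0.68 for Nsbp1 and -0.62 for Rasgrp2, against 1.06, 1.54, 1.41 and 1.91. For Med31, Cox6b1, Eif5b and Krt73 it was -0.62, -0.62, -0.59 and -0.59, against 1.63, 1.08, 1.24 and 1.51. In Fabp1, Nudt18, Fggy and Krt73 the forskolin value at 20 mM was below 1 FPKM.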

How the results depend on the processing

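Without replicates, the choice of scale set the limits. With the 20 mM forskolin values multiplied by 1.2, which shifts every log2 fold by about 0.26, 588 genes rose (56.1%), 185 were flat, 4 were lower and the median log2 fold was 1.10. Divided by 1.2, 330 rose (31.5%), 506 were flat (48.2%), 18 were lower and the median was 0.59. Under both, AP-1 subunits kept 6 of 7 at 2-fold, and no ER chaperone gene rose when divided and 1 did when multiplied. Flat genes numbered 17 and 12 of 23 (ribosomal and translation), 12 and 4 of 14 (nucleolar), 8 and 2 of 8 (ER) and 17 and 6 of 28 (RNA binding) when divided and multiplied. The median of the interferon list was -0.08 and turned to 0.18 when multiplied. At a 3-fold threshold 234 genes rose. Lower genes numbered 2 with a pseudocount of 1, 3 with a mean of at least 5 FPKM and 55 with no filter on the mean. The median was 0.77 and 0.85 with pseudocounts of 1 and 0.01, 0.85 and 0.73 with a mean of at least 5 FPKM and with no filter, and 0.79 where both 20 mM libraries reached 1 FPKM. The cause was not tested. A pseudocount of 1 moved 18 of 209 named genes past their class. With a mean of at least 5 FPKM, 54.2% of risers, 13.3% of weak risers, 7.53% of flat and 0 of 3 lower genes were listed at 11 mM. Values near 0.1 FPKM are limited by depth.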

Other observations

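Zinc finger and ubiquitin genes, not described above, were spread over the classes much as all genes were. Of 17 genes of the Zfp, Znf and Zbtb series 6 rose, 6 rose weakly and 5 were flat, with a median log2 fold of 0.82. Zfp703, a transcriptional repressor, went from 5.41 to 52.4 FPKM at 20 mM. Of 19 ubiquitin ligase and deubiquitinase genes 9 rose, 3 rose weakly and 7 were flat. Klhl15, an adaptor of a ubiquitin ligase, was flat at 20 mM (2.09 FPKM with DMSO, 2.45 with forskolin) after a wide difference at 2.8 mM (1.66 and 21.2 FPKM).

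Cytoskeletal, adhesion and matrix genes rose in 6 of 14 cases, near the 42.0% of all genes, and rose weakly in 6. Fn1, fibronectin, went from 118 to 320 FPKM at 20 mM and Lmna, a nuclear lamin, from 139 to 371. Of 6 mitochondrial genes 1 rose and 3 were flat. Of 6 Notch, Wnt, TGF-beta and Hippo genes 4 rose, such as Lfng (2.04 to 10.1 FPKM), and Smad3 had 2.21 FPKM in DMSO and 1.60 in forskolin. Listed at 0 in a 20 mM library were Mir343, at 0 and 367 FPKM in DMSO and forskolin, and Fam70b and Ucn3, at 0 in both.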
